A study of Mus musculus with 1279 samples.

Results

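Cluster 6 and cluster 7 of the strain Cspg4dsRED were compared, 33 and 75 single cells of 1279 in the whole heart series. The cells were taken by their labels alone, the strain and the number of the cluster that the study gave each cell. Both clusters came from the 1 plate of this strain, whose other cells fell in cluster 8 (29 cells) and in clusters 1 to 5 (26 cells), which the study places among fibroblasts. Cells were the only repeated units, the labels name no animal, and cells of 1 plate are not replicates of a condition. No test was therefore made. Intervals treat reads or cells as independent draws, so they do not cover differences between animals or plates.

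Cspg4dsRED mice carry the transgene Tg(Cspg4-DsRed.T1)1Akik, in which a red fluorescent protein is made under regulatory sequences of Cspg4, a proteoglycan of mural cells. The mice were males of 10 to 20 weeks on a C57BL6/J background, and both clusters share this genotype, sex, age range, dissociation protocol and sort (red positive, CD31 negative, 1 cell per well). The hearts were dissociated with a skeletal muscle kit to which collagenase was added, and elastase was part of the mix only in the strain Acta2GFP, whose GFP is driven by Acta2 sequences. The reporter limits the cells to those in which the Cspg4 sequences are active, and the authors had removed cells with endothelial or immune signatures. Acta2GFP, on another plate, gave 3 cells of cluster 6 and 33 of cluster 7, and its values are set beside those of Cspg4dsRED without a comparison of the strains. C57BL6 males of the same age range, which carry no reporter and were sorted by antibody staining, gave 3 cells of cluster 6 on a further plate and are used for 1 value.

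Smooth muscle cells ring the vessel wall and set its tone through actin and myosin, calcium stores and ion channels. In large arteries they lie between sheets of elastin that they lay down themselves, with fibrillin microfibrils, fibulins and lysyl oxidases, whereas in small vessels elastic sheets are few and the cells grade into pericytes. Sost encodes sclerostin, a secreted antagonist of Wnt signalling best known from bone, Cbr2 a carbonyl reductase, Itga8 the integrin alpha 8 chain and Eln tropoelastin. The study named Sost, Cbr2, Ccn3, Actc1, Eln, Actg2 and Itga8 as genes of heart cells that are likely smooth muscle of large vessels. That list was chosen by the study on data that include these cells. It came in part from a combined analysis in which the heart cells grouped with vascular smooth muscle of the lung. The clusters were made from the same counts, so a difference in these genes is a description and no independent evidence.

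The stretches before the transcription start of 4 genes are printed because 3 of them are named with cluster 6 and the remaining one, Hey2, is a Notch target that was lower there. The sequences are from RefSeq (GRCm38.p6), each 250 bases up to the start, 5′ to 3′, at chr11:101967016-101967265 (Sost), chr11:120732022-120732271 (Cbr2), chr2:12301945-12302194 (Itga8) and chr10:30842784-30843033 (Hey2), all on the minus strand. Capitals mark a match to the CArG box, the element that serum response factor binds in smooth muscle genes, or to GTGGGAA, the core of sites of the Notch partner RBPJ, on either strand.
Sost: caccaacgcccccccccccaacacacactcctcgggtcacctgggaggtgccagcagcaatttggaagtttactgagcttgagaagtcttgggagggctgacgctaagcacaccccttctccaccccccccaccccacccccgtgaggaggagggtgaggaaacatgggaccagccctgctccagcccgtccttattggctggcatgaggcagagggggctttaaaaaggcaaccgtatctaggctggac
Cbr2: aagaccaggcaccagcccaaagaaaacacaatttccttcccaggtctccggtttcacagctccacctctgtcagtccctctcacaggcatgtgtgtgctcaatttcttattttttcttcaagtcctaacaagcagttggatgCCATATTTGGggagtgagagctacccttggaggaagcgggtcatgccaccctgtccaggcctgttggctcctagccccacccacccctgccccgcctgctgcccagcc
Itga8: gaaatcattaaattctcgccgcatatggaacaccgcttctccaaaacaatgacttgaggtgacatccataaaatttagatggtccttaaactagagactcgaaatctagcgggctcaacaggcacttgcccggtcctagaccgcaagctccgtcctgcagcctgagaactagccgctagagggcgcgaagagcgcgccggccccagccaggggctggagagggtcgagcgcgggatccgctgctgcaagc
Hey2: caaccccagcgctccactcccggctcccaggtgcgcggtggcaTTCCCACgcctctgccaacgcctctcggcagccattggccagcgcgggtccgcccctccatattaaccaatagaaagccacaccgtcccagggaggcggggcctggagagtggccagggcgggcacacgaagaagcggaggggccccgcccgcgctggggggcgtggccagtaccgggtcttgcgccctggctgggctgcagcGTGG
RefSeq starts can lie inside the gene spans of the other annotation used here, and 93 of the bases printed for Cbr2 and 18 of those for Hey2 fall inside it. Cbr2 held 1 CArG box, and neither motif was found in the stretches of Sost and Itga8. Hey2 held GTGGGAA on the opposite strand at 207 bases before the start and again from 4 bases before it, where the match runs past the printed end. Over windows of 250 bases before to 50 after a start, a CArG box was found in 1.63% of 32851 promoters and in 1.39% of the 6563 matched to genes tested. It was found in 1.78% of the 450 promoters matched to genes higher in cluster 6 and in 1.36% of the 295 matched to genes lower there. GTGGGAA was found in 6.38%, 5.76%, 5.78% and 7.46% of the same promoters. These shares lie close to each other, and a match is a description of letters only.

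Depth differed between the clusters, in a table of deposited read counts without molecular identifiers. Leaving out spike-ins, a cell had from 72523 to 770314 counts in cluster 6 (median 342934) and from 46525 to 551320 in cluster 7 (median 231944), with medians of 5058 and 4094 genes detected. At an equal depth of 50000 counts drawn per cell, without 1 shallower cell of cluster 7, the medians were 3739 and 2912 genes, so cluster 6 again had the higher median. Counts of a cell per count of ERCC, the RNA added in equal amount to each well, had a median of 67.2 in cluster 6 (31.5 to 241) and 43 in cluster 7 (9.72 to 92.4). Wells of cluster 6 lay in rows E to N and those of cluster 7 in rows E to O, both between columns 1 and 24. The clusters shared 10 rows and 20 columns.

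Levels are given as CPM, the counts of a gene summed over a cluster and scaled to equal library totals, which is not corrected for gene length, so that levels are compared between clusters and not between genes. A gene was called higher or lower when the log2 ratio of CPM + 1 between cluster 6 and cluster 7 was at least 2, a 4-fold difference, and when the gene was detected in at least 30% of the cells on the higher side. Of 7003 genes detected in at least 30% of either cluster, 489 (6.98%) were higher and 314 (4.48%) were lower in cluster 6, and the median log2 ratio was 0.10. Scaled by ERCC in place of total counts, ratios move by a median of 0.73, and 996 genes (14.2%) were higher and 2.56% of the genes lower, with every gene called here keeping its direction. 0 of the 7003 genes separated every cell of cluster 6 from every cell of cluster 7. Dkk3, a secreted protein related to Wnt antagonists, came closest among higher genes with cluster 6 above in 99.6% of cell pairs, and Sparcl1, a matricellular protein, among lower genes with cluster 6 above in 1.17% of pairs. The plot of gene levels shows both groups off the diagonal.

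**Figure D1:**
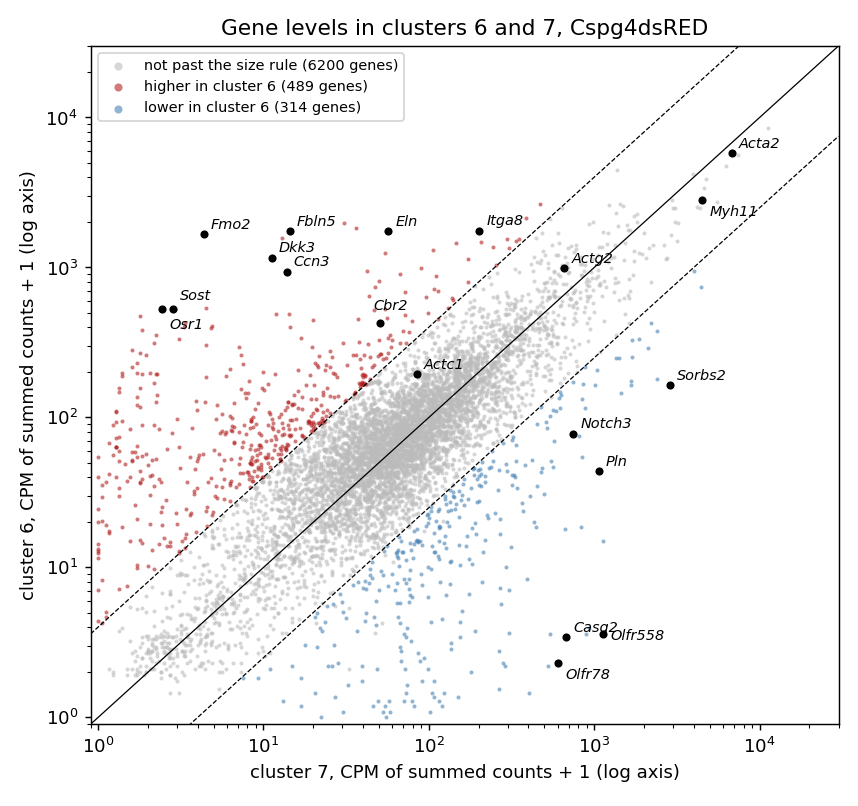
Levels of 7003 genes in cluster 7 (x axis) and cluster 6 (y axis) as CPM of summed counts + 1, both on log axes, with dashed lines at a 4-fold ratio and named genes in black. Sost, Fmo2 and Osr1 lie far above the upper line and Olfr558 and Casq2 far below the lower one, while Acta2 and Myh11 lie near the diagonal.

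Of the 7 genes the study named, 5 were higher in cluster 6 (Sost, Ccn3, Eln, Itga8 and Cbr2), against 6.98% of all genes tested, and Actc1 and Actg2 did not pass the size rule. Sost had 527 CPM in cluster 6 against 1.84 CPM in cluster 7, a log2 ratio of 7.54. Cbr2 had 426 and 49.9 CPM (3.07), Itga8 1762 and 201 CPM (3.12), Eln 1746 and 55.6 CPM (4.95) and Ccn3, a matricellular protein, 935 and 12.8 CPM (6.08). The genes lie on chromosome 11 (Sost 101962458 to 101967015, Cbr2 120729489 to 120732114), chromosome 2 (Itga8 12106632 to 12301922), chromosome 5 (Eln 134702593 to 134747323) and chromosome 15 (Ccn3 54745702 to 54754039) of GRCm38.

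Single cells did not all carry these genes. Sost ran from 0 to 2132 CPM in cluster 6 with a median of 352, and from 0 to 29.5 CPM in cluster 7 with a median of 0. Its counts summed to 5694 (95% Poisson interval 5547 to 5844) in cluster 6 and 33 (22.7 to 46.3) in cluster 7. Sost was absent from 9 cells of cluster 6, had 1 to 6 counts in 3 and at least 59.2 CPM in the other 21, so that cluster 6 split into cells with a clear level and cells at or near 0. A count of Sost was seen in 24 of 33 cells of cluster 6 (72.7%, exact binomial interval 54.5 to 86.7%) and in 17 of 75 cells of cluster 7 (22.7%, 13.8 to 33.8%), where the median of these counts was 1 read and only 1 cell had 10 or more. The source of such single reads was not tested, and cells with 10 or more counts are given for the other genes.

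Cbr2 reached 10 counts in 30 of 33 cells of cluster 6 (0 to 1697 CPM, median 418) and in 11 of 75 cells of cluster 7 (0 to 418 CPM, median 0). Both Sost and Cbr2 reached 10 counts in 20 cells of cluster 6, Sost alone in 1, Cbr2 alone in 10 and neither in 2. No cell of cluster 7, of cluster 8 or of clusters 1 to 5 on the plate reached 10 counts of both. Of the 11 cells of cluster 7 with Cbr2, 8 also reached 10 counts of Itga8, 4 of Eln, 2 of Ccn3 and 7 of Casq2, a gene that reached 10 counts in no cell of cluster 6.

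Itga8 was the one of the 5 with 10 counts in all 33 cells of cluster 6 (218 to 2821 CPM, median 1597), and it reached 10 counts in 32 of 75 cells of cluster 7 (0 to 1669 CPM, median 26.6). Eln ran from 3.16 to 6243 CPM in cluster 6 (median 1418) and from 0 to 1303 CPM in cluster 7 (median 4.3). Ccn3 ran from 0 to 2364 CPM (median 1005) and from 0 to 275 CPM (median 0). The ranges of the clusters overlapped for each of the 5 genes. Counted together, 17 cells of cluster 6 had 10 counts of all 5 genes, 13 of 4 and 3 of 3, and cluster 7 had 1 cell with 4 genes, 5 with 3, 10 with 2, 24 with 1 and 35 with none. The 5 genes were those called higher in these same cells, so the split follows in part from their choice.

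The actin genes differed from the other genes of the study's list. Actg2, the gamma smooth muscle actin, had 986 CPM in cluster 6 against 656 CPM in cluster 7 (log2 ratio 0.59), with 0 to 2704 CPM per cell (median 841) and 0 to 4873 CPM (median 43). Actc1, the cardiac alpha actin, had 192.4 and 83.7 CPM (1.19), but its level in cluster 6 lay in 5 cells of 479 CPM or more, up to 6170.1 CPM, and no other cell exceeded 40.3 CPM. In cluster 7, 19 cells reached 10 counts of Actc1, up to 1261 CPM. Actin genes are near-identical in coding sequence and reads may have been split between them, so these values are uncertain.

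**Figure D2:**
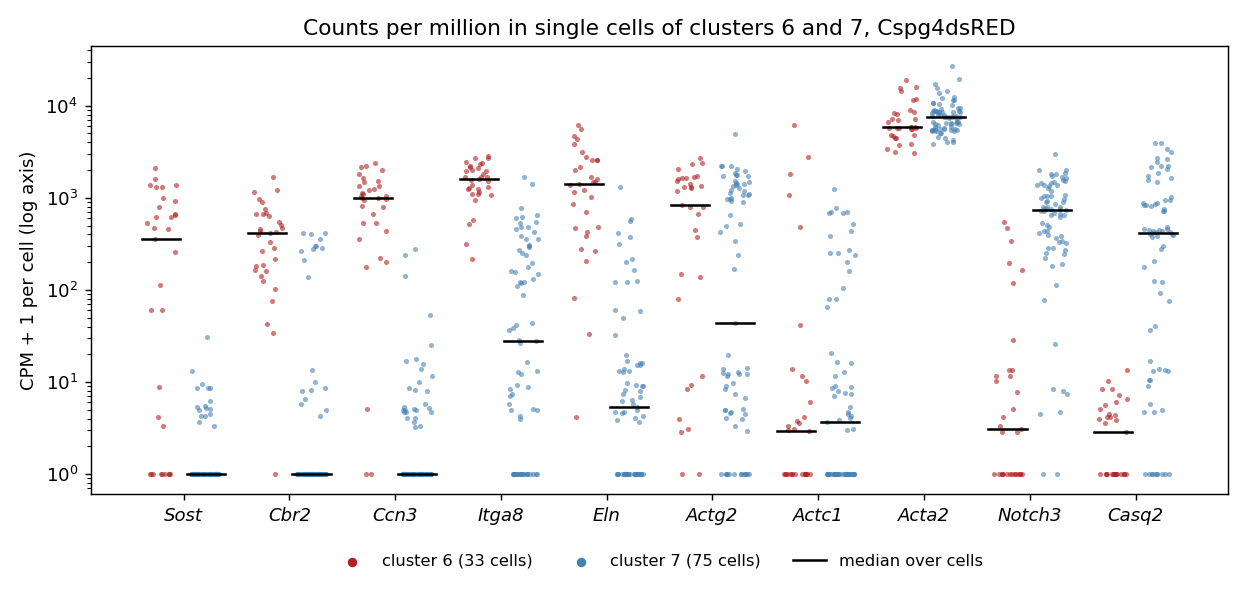
CPM + 1 (log axis) of 10 genes in each of 33 cells of cluster 6 (red) and 75 cells of cluster 7 (blue), with the median over cells as a black line. Points at 1 are cells without a count, and the ranges of Acta2 overlap widely while Sost, Cbr2, Ccn3 and Casq2 have most cells of one cluster at or near 1.

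On the same plate these genes differed in how far other clusters held them. Sost had 0.45 CPM in cluster 8 against 0.853 CPM in clusters 1 to 5, Cbr2 0.6 and 9.19 CPM, and Ccn3 1.8 and 16.9 CPM. Itga8 had 180.6 CPM in cluster 8, close to cluster 7, and 7.01 CPM in clusters 1 to 5, whereas Eln had 4.05 CPM in cluster 8 against 324 CPM in clusters 1 to 5.

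Both clusters carried the smooth muscle markers, and none of the 6 passed the size rule. Acta2, smooth muscle alpha actin, had 5753 CPM in cluster 6 against 6792 CPM in cluster 7, and ran from 3104 to 19236 CPM (median 5813) and from 3869 to 26800.3 CPM (median 7486). Myh11, the smooth muscle myosin heavy chain, had 2836 and 4495 CPM (log2 ratio -0.66), Tagln 2496 and 3085 CPM (-0.31) and Cnn1, calponin, 2299 and 1344 CPM (0.77). Summed over the list, cells ran from 6215 to 36571 CPM in cluster 6 against from 7277 to 40122 CPM in cluster 7, while clusters 1 to 5 had 42 to 5082 CPM. Acta2, Myh11 and Tagln reached 10 counts in every cell of cluster 6, but Cnn1 did so in 31 of 33, with a lowest value of 4.14 CPM, and the lowest cell had 139.6 CPM of Myh11. The size of the vessels was not measured. Desmin (Des), an intermediate filament of muscle, did not pass the rule (855 and 1342 CPM), yet 16 of 33 cells of cluster 6 and 62 of 75 of cluster 7 reached 10 counts of it.

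Of 49 contractile genes tested, 3 were higher and 3 lower in cluster 6 (6.12% each), close to the 6.98% and 4.48% of all genes, with a list median of -0.22 that becomes 0.52 under ERCC scaling, where 4 were higher and 1 lower. Myh10, a nonmuscle myosin, had 451 CPM in cluster 6 against 36.3 CPM in cluster 7 (log2 ratio 3.60), Fhl1, a LIM domain protein, 2641 and 469.6 CPM (2.49) and Cnn3, the acidic calponin, 1033 and 253 CPM (2.03, or under 2 with TMM or DESeq2 scaling). Myh10 reached 10 counts in 30 of 33 and in 6 of 75 cells. Among the lower ones were Sorbs2 and Palld, proteins that anchor actin. Sorbs2 had 162.4 and 2868 CPM (-4.13), with a median over cells of 16.5 CPM in cluster 6 against 2664 CPM in cluster 7, and Palld had 131.4 and 839.6 CPM (-2.67).

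Genes of elastic fibres and collagens were higher in cluster 6 in most cases. Of 20 elastic fibre genes tested, 12 were higher (60%, against 6.98% of all genes) and 0 lower, with a median of 2.29 against 0.10 for all genes tested, and of 16 collagens 12 were higher (75%) and 0 lower (median 3.54). The summed elastic fibre list ran from 3557 to 28315 CPM per cell in cluster 6 and from 33.3 to 3781 CPM in cluster 7, and 32 of the 33 cells of cluster 6 lay above every cell of cluster 7. Other cells of the plate were not all low, since the median of this list was 10064 CPM in cluster 6, 11539 CPM in clusters 1 to 5 and 2351 CPM in cluster 8. For collagens the medians were 5594 CPM in cluster 6, 989 CPM in cluster 7, 11519.9 CPM in clusters 1 to 5 and 4950.2 CPM in cluster 8, so that cluster 7 had the lowest.

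Fbln5, a fibulin that tethers elastin to cells, had 1750.4 CPM in cluster 6 against 13.4 CPM in cluster 7 (log2 ratio 6.93), and reached 10 counts in 32 of 33 and 1 of 75 cells. The microfibril proteins Mfap4 (1571 and 12 CPM, 6.92) and Mfap5 (407 and 3.91 CPM, 6.38) and the fibulin Fbln1 (395 and 3.8 CPM, 6.37) followed. Ltbp4, which binds latent TGF-beta to elastic fibres, had 898 and 65.6 CPM (3.76) and Loxl1, a lysyl oxidase that cross-links elastin, 687 and 70.7 CPM (3.26). Fibrillin 1 (Fbn1) had 369 and 101.9 CPM (1.85) and Lox 314 and 133.9 CPM (1.23), neither past the rule. The genes past the rule thus covered the elastin core, its fibulins and microfibril-associated proteins, while fibrillin 1 itself stayed under the limit.

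Among collagens, the fibrillar genes Col3a1 (1248 and 53.3 CPM, log2 ratio 4.52), Col1a1 (942 and 41 CPM, 4.49), Col1a2 (1474 and 207 CPM, 2.82) and Col5a1 (155.6 and 0.335 CPM, 6.87) were higher in cluster 6. The chains Col6a1, Col6a2 and Col6a3 of microfibrillar collagen VI passed too, Col6a1 with 301 and 3.52 CPM (6.06). The basement membrane chains Col4a1 (355 and 251 CPM, 0.50) and Col4a2 (334 and 199.5 CPM, 0.74) did not pass. Col15a1 had 63 and 0.279 CPM (5.65). Col4a6 (265 and 49.6 CPM, 2.40) was the one collagen IV chain past the rule.

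Fibroblast genes moved with these results. Of 5 fibroblast markers tested, 4 were higher in cluster 6 (Lum, Dpt, Col1a1 and Dcn; 80%, against 6.98% of all genes), and the summed list ran from 46.6 to 23309 CPM in cluster 6 (median 1265), from 0 to 849 CPM in cluster 7 (median 70.4) and from 125.2 to 21142 CPM in clusters 1 to 5 (median 10931). The list includes Col1a1, also a collagen above, and Pdgfra, its receptor marker, reached 10 counts in 2 cells of cluster 6 and in 0 of cluster 7. In 4 cells of cluster 6 the sum reached that of clusters 2 to 5 on the plate, whose lowest cell had 6333 CPM, and the next cell of cluster 6 had 3442 CPM. These 4 cells had 2082 to 9939 CPM of Dcn (0 to 849 in the other 29), 3106 to 16078 CPM of Acta2 and 139.6 to 1713 CPM of Myh11, and 3813 to 6134 genes detected. Sost was at 0 in 2 of them.

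Without these 4 cells, a comparison added after the data were seen, 477 genes were higher and 329 lower, of which 427 and 305 were also called with all cells. The same 12 elastic fibre genes were higher, as were 11 of the 12 collagens, whose list median went from 3.54 to 2.92. The log2 ratio of Eln was 4.70, that of Sost 7.62 and that of Fbln5 6.79. Lum went from 5.15 to 3.15 and Dcn from 3.28 to 2.02, and both still passed the size rule. Lum rested on few cells, since it reached 10 counts in 9 of all 33 cells of cluster 6, had a median of 3.16 CPM and a highest value of 717 CPM in the other 29 cells, and gave a log2 ratio of -0.27 from the medians over all cells of the clusters. The part of fibroblast RNA in the other differences was not tested.

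**Figure D3:**
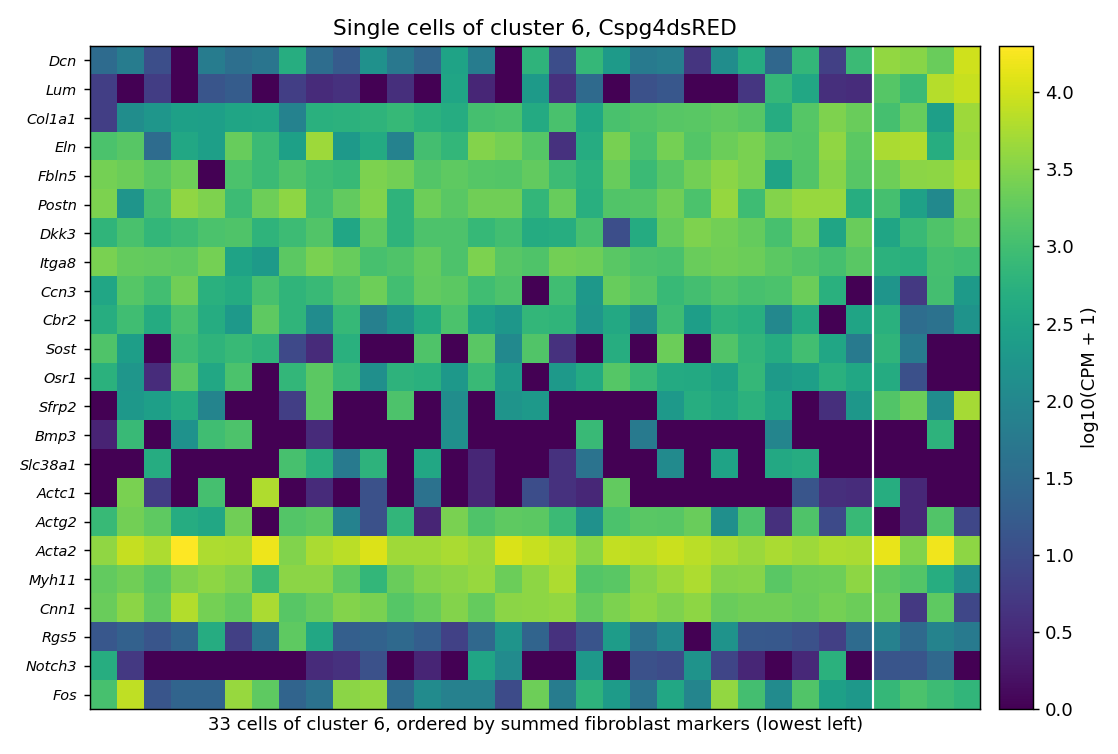
Levels of 23 genes (rows, log10 of CPM + 1 by colour) in the 33 cells of cluster 6 (columns), ordered by summed fibroblast markers, with a white line before the 4 cells at the level of fibroblasts. Acta2 is bright in every column, Dcn and Lum are brightest in the last 4 columns, and Sost, Sfrp2, Bmp3, Slc38a1 and Actc1 alternate between dark and bright cells.

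Proteoglycans and matricellular proteins were 13 higher and 2 lower of 31 tested (41.9% and 6.45%, against 6.98% and 4.48% of all genes, median 1.70), 11 and 3 without the 4 cells, and 17 and 1 under ERCC scaling. Postn, periostin, had 1983 CPM in cluster 6 against 29.8 CPM in cluster 7 (log2 ratio 6.01), with 110.3 to 4350.5 CPM per cell (median 1878) and 0 to 1168 CPM (median 9.07). Prelp, a small leucine-rich proteoglycan, had 1823 and 35.2 CPM (5.65), Fn1, fibronectin, 518 and 45.6 CPM (3.48) and Mgp, matrix Gla protein, an inhibitor of calcification, 1511 and 337 CPM (2.16). In the other direction, Igfbp5, a binding protein of insulin-like growth factors, had 17.1 and 669 CPM (-5.21). Biglycan (Bgn), an abundant proteoglycan of vessel walls, had 4467 and 1374 CPM (1.70) and did not pass.

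Of 12 integrin genes, the receptors of this matrix, 5 were higher (41.7%, against 6.98% of all genes), 1 was lower (8.33%, against 4.48%) and 6 were not called, with a list median of 1.11, and under ERCC scaling 6 were higher and 0 lower. Beside Itga8, Itga5, the fibronectin receptor chain, had 645 and 42.3 CPM (log2 ratio 3.90), Itga9 311 and 29.4 CPM (3.36) and Itgb5 481 and 71 CPM (2.74). Npnt, nephronectin, a ligand of integrin alpha 8 in the basement membrane, had 739 and 46.4 CPM (3.96) and reached 10 counts in 27 of 33 and in 11 of 75 cells. Both the ligand and the receptor chain were thus higher in cluster 6. Itga7, a laminin receptor chain of muscle, was lower (170.2 and 748 CPM, -2.13), and the common beta chain Itgb1 had 1704 and 1214 CPM (0.49). Of 17 basement membrane genes other than collagens, Npnt among them, 5 were higher (29.4%) and 2, Agrn and Sparcl1, lower (11.8%), and under ERCC scaling 7 were higher and 0 lower. Sparcl1 ran from 8.57 to 2962 CPM in cluster 6 (median 244) and from 236 to 7345 CPM in cluster 7 (median 4663).

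Calcium handling and ion channel genes were mostly lower or not past the rule, with 8 of 37 lower (21.6%, against 4.48% of all genes) and 1 higher (2.7%, against 6.98%; median -0.75, which becomes -0.01 under ERCC scaling, with 7 lower and 4 higher). Casq2, the calcium buffer of the sarcoplasmic reticulum, had 2.41 CPM in cluster 6 against 671 CPM in cluster 7 (log2 ratio -7.62). It ran from 0 to 12.6 CPM in cluster 6 (median 1.87) and from 0 to 3944 CPM in cluster 7 (median 412), with 10 counts in 0 of 33 and in 51 of 75 cells. Pln, phospholamban, the inhibitor of the calcium pump of that store, had 42.9 and 1062 CPM (-4.60), with 10 counts in 7 and 71 cells. The pump itself, Atp2a2, had 345 and 664 CPM (-0.94) and was not called.

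Kcna5, a voltage-gated potassium channel, had 7.03 and 208 CPM (log2 ratio -4.70) and Atp1b2, a beta subunit of the sodium pump, 144.3 and 1443 CPM (-3.31). The main calcium channel of smooth muscle, Cacna1c, had 44 and 109.1 CPM (-1.29), and the channel subunits Kcnj8 and Abcc9 had 52.4 and 52.6 CPM (-0.01) and 39.2 and 17.6 CPM (1.11). Kcnj15, an inward rectifier potassium channel, was the gene in the list that was higher (91.9 and 0.279 CPM, 6.18), with 10 counts in 10 of 33 cells.

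Vasoactive receptors and cyclic nucleotide genes went both ways, 5 higher (17.9%, against 6.98% of all genes) and 6 lower (21.4%, against 4.48%) of 28, with a median of -0.17 that becomes 0.53 under ERCC scaling, where 6 were higher and 5 lower. S1pr3, a receptor of sphingosine 1-phosphate, had 14.1 CPM in cluster 6 against 1126 CPM in cluster 7 (log2 ratio -6.22), with 10 counts in 1 of 33 and 60 of 75 cells. Ednra, the endothelin A receptor, had 50.5 and 548 CPM (-3.41), and the regulators of G protein signalling Rgs5 and Rgs4 had 180.7 and 2395 CPM (-3.72) and 377 and 2389 CPM (-2.66). Higher were the natriuretic peptide receptors Npr2 (62.2 and 2.07 CPM, 4.37) and Npr1 (140.6 and 14.3 CPM, 3.21), and the thrombin receptor F2r (158.5 and 37.5 CPM, 2.05, or under 2 with TMM scaling). The soluble guanylate cyclase chain Gucy1a1 had 802 and 2209 CPM (-1.46) and was not called.

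Notch pathway genes were lower or not past the rule, with 6 of 14 lower (42.9%, against 4.48% of all genes) and 0 higher (median -1.17, and 4 lower and 1 higher under ERCC scaling). The receptor Notch3, which mural cells use, had 76.7 CPM in cluster 6 against 745 CPM in cluster 7 (log2 ratio -3.26). It ran from 0 to 549 CPM in cluster 6 (median 2.11) and from 0 to 3009 CPM in cluster 7 (median 731), and it reached 10 counts in 6 of 33 and 67 of 75 cells. Notch1 had 13.2 and 150.2 CPM (-3.41). The targets Hey2, whose promoter is printed above (15.3 and 170.1 CPM, -3.40), Nrarp (13 and 166.8 CPM, -3.58) and Hes1 (92.3 and 510.4 CPM, -2.46) were lower too, whereas Heyl had 503 and 466 CPM (0.11) and the DNA-binding partner Rbpj 87.7 and 78.6 CPM (0.16). Of the 14 genes, 5 had a ratio above 0. In Acta2GFP, Notch3 had 85.8 and 615 CPM (-2.83) and Hey2 179.2 and 154.8 CPM (0.21).

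Wnt genes were 7 higher (36.8%, against 6.98% of all genes) and 2 lower (10.5%, against 4.48%) of 19 tested, with a median of 0.76. Beside Sost, the secreted antagonist Sfrp2 had 384 CPM in cluster 6 against 0.837 CPM in cluster 7 (log2 ratio 7.71). Dkk3, a secreted protein related to Wnt antagonists, had 1159.6 and 10.2 CPM (6.70). Dkk3 reached 10 counts in 32 of 33 cells, Sfrp2 in 18. Receptors were Fzd1 (167.3 and 9.71 CPM, 3.97) and Lrp5 (44.3 and 2.85 CPM, 3.56), to which sclerostin binds, both higher, and Fzd4 (10.5 and 79.5 CPM, -2.80), lower. Daam2, a formin of the pathway, was lower here (1.11 and 70.6 CPM, -5.08). Of the TGF-beta and BMP genes 6 of 27 were higher (22.2%) and 0 lower, among them the receptor Tgfbr1 (149.9 and 15.1 CPM, 3.23) and the ligands Bmp3 (146.8 and 0.335 CPM, 6.79) and Bmp4 (58.2 and 0.614 CPM, 5.20). Bmp3 reached 10 counts in 9 of 33 cells and in 0 of 75, so the summed level rested on a minority of cells.

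Transcription factors of position and lineage were 5 higher (14.7%, against 6.98% of all genes) and 9 lower (26.5%, against 4.48%) of 34, with a median of -0.11 that becomes 0.63 under ERCC scaling, where 6 were higher and 6 lower. Osr1, a zinc finger factor of mesenchyme, had 526 CPM in cluster 6 against 1.45 CPM in cluster 7 (log2 ratio 7.75), with 10 counts in 27 of 33 and 0 of 75 cells, and 79.7 CPM in clusters 1 to 5. Gata6 (52.7 and 3.01 CPM, 3.74), Foxp2 (121.9 and 13.8 CPM, 3.05) and Meis2 (59.8 and 12.6 CPM, 2.16) were higher too. Lower were Ebf2 (1.02 and 177.6 CPM, -6.47), Tbx2 (6.75 and 133.1 CPM, -4.11), Nr2f2 (22 and 251 CPM, -3.45) and Gata4 (34.5 and 201 CPM, -2.51). The GATA genes 6 and 4 thus stood in opposite directions, while Myocd, the coactivator of smooth muscle genes, had 1059 and 816 CPM (0.38).

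Beyond the lists, the 15 genes with the largest ratios on the higher side, among those of 50 CPM or more there, included Fmo2, Osr1, Sfrp2, Sost, Nox4, Pamr1, Pdlim4, Mmp23, Gja1, Cdo1, Slc38a1, Ptprz1, Emb and Galnt16. Fmo2, a flavin-containing monooxygenase, had 1659 CPM in cluster 6 against 3.35 CPM in cluster 7 (log2 ratio 8.58) and ran from 0 to 4141 CPM (median 1505) and from 0 to 22.7 CPM (median 2.04). Nox4, an NADPH oxidase, had 531 and 1.9 CPM (7.52), and Gja1, the gap junction protein connexin 43, 311 and 1.17 CPM (7.16). Pdlim4, a protein of the actin cytoskeleton, was also near 0 in cluster 8 and in clusters 1 to 5 (1.95 and 1.52 CPM), whereas Fmo2 had 365 CPM and Gja1 120.7 CPM in clusters 1 to 5. Slc38a1, a glutamine transporter, reached 10 counts in 11 of 33 cells only.

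On the lower side the 15 genes included Olfr558, Gpr20, Olfr78, Nrip2, Adamtsl1, Rasd1, Casq2, Pgam2, Ndufa4l2, Gm44596, Gprc5c, Rnf152, Higd1b and Gucy2g. Olfr558, an odorant receptor gene found in vessels, had 2.59 CPM in cluster 6 against 1133 CPM in cluster 7 (log2 ratio -8.30), with 0 to 25.2 CPM per cell (median 2.11) and 0 to 3881 CPM (median 997). Olfr78, another odorant receptor, had 1.3 and 606 CPM (-8.05), and the orphan receptor Gpr20 0.463 and 402 CPM (-8.11). None of these 3 genes reached 10 counts in a cell of cluster 6, against 71, 52 and 41 of 75 cells of cluster 7.

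Among the other genes on this side, Pgam2, the muscle phosphoglycerate mutase, had 0.555 and 266 CPM (log2 ratio -7.42). Rnf152 and Gucy2g rested on 2 and 1 counts in cluster 6, and the counting intervals of their log2 ratios, without a pseudocount, were -12.38 to -7.48 and -15.39 to -7.61. Nrip2 and Gm44596 overlap on the same strand and may share reads. Of 7 pericyte markers 5 (71.4%, against 4.48% of all genes) were lower in cluster 6 (Ndufa4l2, Higd1b, Rgs5, Steap4 and Vtn), 3 of them also under ERCC scaling. The summed pericyte list ran from 15.8 to 1706 CPM in cluster 6 (median 110.3) and from 2.67 to 25612 CPM in cluster 7 (median 2185), with a median of 26379 CPM in cluster 8. Cluster 7 thus held cells with pericyte genes over a wide range, whereas no cell of cluster 6 passed the median of cluster 7.

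**Figure D4:**
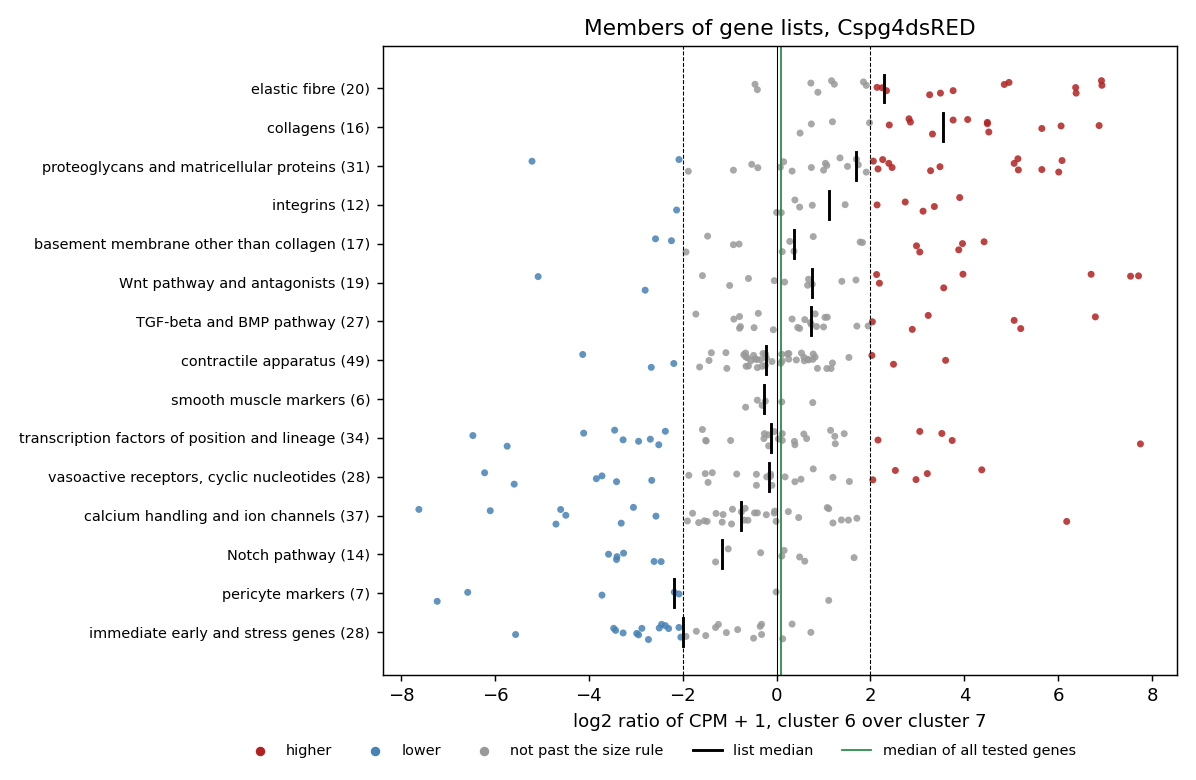
Log2 ratio of CPM + 1, cluster 6 over cluster 7, of every tested member of 15 gene lists (rows, number tested in brackets), with list medians as black bars, the median of all tested genes (0.10) in green and dashed lines at -2 and 2. Elastic fibre genes and collagens lie mostly to the right, the Notch, pericyte and immediate early lists to the left, and contractile genes around 0.

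Immediate early and stress genes, which cells turn on within minutes and also during dissociation, were 14 lower (50%, against 4.48% of all genes) and 0 higher of 28 (median -1.98, and 7 lower under ERCC scaling). Fos had 951 CPM in cluster 6 against 4024 CPM in cluster 7 (log2 ratio -2.08), and ran from 8.52 to 7655 CPM (median 273) and from 16.6 to 16683 CPM (median 4067). Socs3 had 74.4 and 809 CPM (-3.43), Nr4a2 7.31 and 392 CPM (-5.56) and Jun, not past the rule, 427 and 897 CPM (-1.07). The summed list ran from 2329 to 31843 CPM in cluster 6 and from 890.2 to 97765 CPM in cluster 7, so the clusters overlapped widely. The part of this response in the lower genes was not tested.

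Of 8 endothelial markers 3 were tested, and Pecam1 was called among them (67.1 and 5.64 CPM, log2 ratio 3.36). It rested on 4 cells of 119.7 CPM or more, no other cell of cluster 6 exceeded 25.5 CPM, and Cdh5, Kdr, Tek, Tie1 and Cldn5 had 1.2 CPM or less in cluster 6. Outside the list, and chosen after their values were seen, Plvap (58.8 and 0.335 CPM, 5.48) and Flt1 (37.8 and 1.34 CPM, 4.05), both genes of endothelial cells, were also higher, with a count in 42.4% and 30.3% of the cells of cluster 6. The part of endothelial RNA in the results was not tested. Of 10 cardiomyocyte markers 4 were tested, with 1 higher and 1 lower (25% each, against 6.98% and 4.48% of all genes; 1 and 0 under ERCC scaling). Tnnt2 was higher (460.3 and 54.5 CPM, 3.06, with 10 counts in 18 of 33 and 14 of 75 cells) and Mb lower (14.1 and 84.4 CPM, -2.50), while Myh6 had 0.278 and 11 CPM. The summed immune list had 15.5 and 9.16 CPM, Schwann cell markers 7.86 and 3.91 CPM and mesothelial markers 0 and 0.279 CPM. Of 5 valve genes named by the study, Thbs1 was the one tested (log2 ratio -1.88), with 10 counts in 3 of 33 and 32 of 75 cells. Without the 4 cells high in fibroblast markers its log2 ratio was -4.71, which passes the rule as lower, and the summed valve list went from 215 to 67.4 CPM in cluster 6, against 642 CPM in cluster 7. It also passed with cell means (-2.13), with medians over cells (-3.01) and with thinned counts (-2.15), and it was 2.62 in Acta2GFP.

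Cspg4, whose regulatory sequences drive the reporter, had like levels, 625 CPM in cluster 6 against 715 CPM in cluster 7. It reached 10 counts in every cell of both, and both were sorted as red positive. No level of the red protein or its RNA is given here. In Acta2GFP, Cspg4 had 433 and 150.1 CPM. Snupn, which lies beside Cspg4 on chromosome 9, had 443 and 329 CPM in Cspg4dsRED but 21.1 and 28.9 CPM in Acta2GFP. Whether counts of these genes come from the transgene was not tested.

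The same clusters in Acta2GFP, with 3 cells of cluster 6, gave Sost 261 and 0.502 CPM (log2 ratio 7.45), Cbr2 366 and 52.8 CPM (2.77), Itga8 1082 and 196.8 CPM (2.45), Eln 1121 and 30.8 CPM (5.14) and Ccn3 330.4 and 3.85 CPM (6.10). The 3 cells had 0, 398 and 485 CPM of Sost and 1.27, 1.47 and 5327 CPM of Eln, so 1 cell carried the level of Eln. Their summed fibroblast markers were 1529.7, 2328 and 3267 CPM, above the median of 1265 CPM in cluster 6 of Cspg4dsRED, and the 3 cells of cluster 6 in the strain C57BL6 had 8695 to 12009.9 CPM. Of the 489 genes higher in Cspg4dsRED, 313 were above 0 in Acta2GFP and 201 past 2, while 60 were at -2 or less. Of the 314 lower genes, 279 were below 0 and 197 at -2 or less, while 4 were at 2 or more. Casq2 had 7.02 and 1016 CPM (-6.99) and Pln 9.72 and 1086 CPM (-6.66). Ratios over all genes lay lower in Acta2GFP (median shift -0.44), and 13% of 12300 genes were higher and 20.2% lower there, so the 2 same-direction counts cannot be set against each other, and the strains were not tested against each other. Elastase treatment, sort and plate differ between the strains and cannot be told apart.

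**Figure D5:**
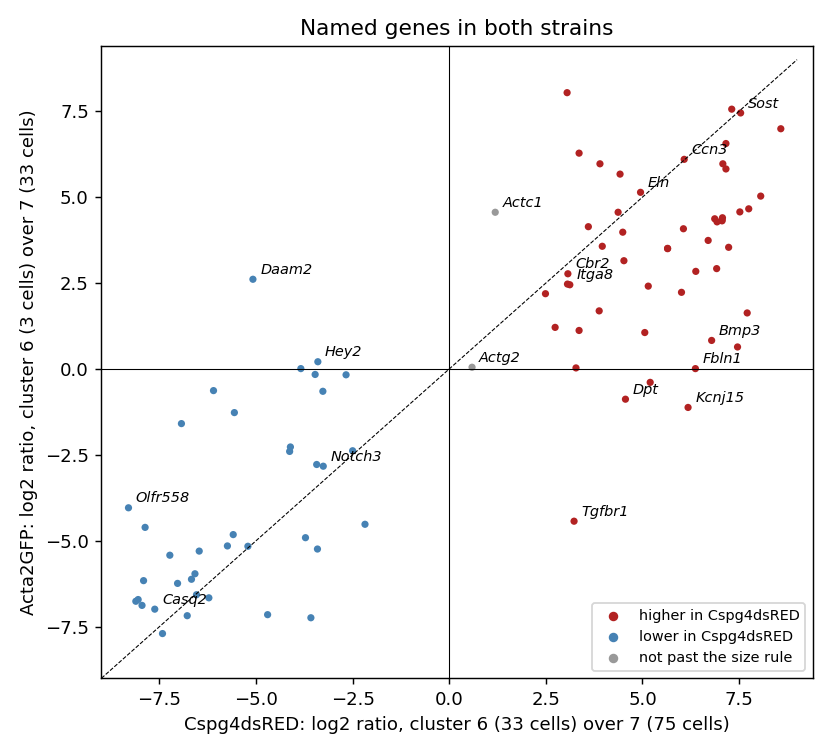
Log2 ratios of CPM + 1, cluster 6 over cluster 7, of 91 named genes in Cspg4dsRED (x axis, 33 and 75 cells) and in Acta2GFP (y axis, 3 and 33 cells), with a dashed line of equal values. Most points share a sign, and Daam2 and Tgfbr1 lie on opposite sides. Tgfbr1 and Kcnj15 had no count in the 3 cells of cluster 6 in Acta2GFP.

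Within cluster 6, the genes whose log2(CPM + 1) was most like that of Sost over the 33 cells, among 6673 genes, were Gm36569, Gm17529, Psma2, Fam198b and Tsn, with Pearson's r from 0.60 to 0.65. For Cbr2 they were Tgm2, a transglutaminase that cross-links matrix (0.76), Mif (0.66), Ybx1 (0.65), Tpi1 and Rexo2 (both 0.61). Sost and Cbr2 had an r of 0.23 with each other, and Sost had 0.38 with Eln, -0.08 with Ccn3 and -0.06 with Itga8. The points share 1 plate and differ in depth, and the values are descriptions.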

How the data were processed

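Single cells of adult mouse hearts were sorted into 384-well plates and sequenced by Smart-seq2 with 50-base reads. Reads were trimmed by the authors, aligned to GRCm38 with TopHat2 and counted with featureCounts, as the methods state. Cells were filtered by counts (50000), genes (1500 to 10000), spike-ins and marker genes, and all strains were clustered together with pagoda2. The deposited table holds whole-number read counts per gene and cell, of which 1061 cell columns were not used. Strandedness and annotation release are not given in the sources used here, and 42 of the 91 leading genes overlap another gene, so their reads may be shared. The labels' processing notes also list Bowtie2.

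Counts were summed per cluster (46517 features without ERCC) and scaled to CPM, with a pseudocount of 1 CPM, in Python 3.11.15 (numpy 2.4.6, pandas 2.3.3, scipy 1.17.1). No test was made. Intervals (95%) were exact Poisson for summed counts, which takes reads as independent, and Clopper-Pearson for shares of cells, which takes cells as independent. Neither covers differences between animals or plates, and the Poisson ones leave out the spread between cells. Those of ratios treat reads likewise and leave out the pseudocount. The calling script was checked on simulated counts. Named were the study's genes, the 15 genes of largest ratio per direction with 50 CPM or more, up to 4 called genes per list and genes that define a list's role, the last chosen with values in view. The members and lists were chosen with earlier results of these data known. Alternatives used TMM (edgeR 4.0.16) and DESeq2 1.42.0 size factors in R 4.3.3, ERCC scaling, cell means and medians, other pseudocounts and filters, thinning, and left-out cells. Mouse promoter sequences were from RefSeq; 336 of 489 higher and 217 of 314 lower genes matched. Some genes that the naming rule takes are not reported here.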

Additional observations from a re-analysis of the deposited data

Results flagged for a closer look

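In 5 of the named genes that passed the size rule in Cspg4dsRED, the direction in Acta2GFP (3 and 33 cells) was opposite to that in Cspg4dsRED by 1 or more on the log2 scale, and this difference between strains was not tested. Daam2 had a log2 ratio of -5.08 in Cspg4dsRED and 2.61 in Acta2GFP, where cluster 6 had 236 CPM (cells from 0 to 581 CPM) and cluster 7 had 38 CPM. Agrn had -2.24 and 1.29, with 100.9 and 40.6 CPM in Acta2GFP. Tgfbr1 had 3.23 in Cspg4dsRED and no count in the 3 cells of Acta2GFP against 20.6 CPM in cluster 7, which gives -3.04 at the limit that 0 counts allow (3 counts, 1.62 CPM). Lrp5 had 3.56 and -1.29 and Npr1 3.21 and -1.32, on 1 and 2 counts in the cluster 6 cells of Acta2GFP. Thbs1, which did not pass the rule, had -1.88 and 2.62.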

How the results depend on the processing

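The shares of tested genes called higher (6.98%) and lower (4.48%) stayed within 1.5 times with cell means, a pseudocount of 0.1 CPM, TMM or DESeq2 size factors, thinning, and without cells with Pdgfra. The genes called were less stable than these shares. Cell means kept 85.3% of the higher and 87.9% of the lower calls, thinning 62.4% of each, and medians over cells 43.6% and 43.3%. Higher genes were 24% (1682 genes) with medians over cells, 4.11% (288) with a pseudocount of 10 CPM, 3.33% of 46517 (1549) without a filter, 11% of 910 (100) with a filter of 100 counts, 13% of 12300 (1593) in Acta2GFP and 14.2% (996) with ERCC scaling, which was added after seeing the data. Lower genes were 7.03% (64) with 100 counts, 20.2% (2490) in Acta2GFP and 2.56% with ERCC scaling, and 1466 genes without a filter. Of all calls, 60.9% were higher, against 84.8% with ERCC scaling, 85.4% with medians, 51.4% without a filter and 39% in Acta2GFP.

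Of the called genes named, 26 did not keep their direction with medians over cells, mostly at a median of 0 in both clusters, with Lum at -0.27 and Pecam1 at -1.11. In Acta2GFP 12 were reversed, with a log2 ratio of -0.88 for Dpt, 0.01 for Rgs7bp, 0.21 for Hey2, 2.61 for Daam2, -0.39 for Bmp4, -3.04 for Tgfbr1, 1.29 for Agrn, -0.31 for Fzd1, 0.08 for Gata4, -0.87 for F2r, -1.29 for Lrp5 and -1.32 for Npr1. The cause was not tested. In the other alternatives none changed direction, and with ERCC scaling 12 were no longer past 2, among them Sparcl1, Fos, Rgs4, Hes1, Itga7, Palld and Gata4. Agrn, Fos and Gata4 were also under the limit with cell means. No paired analysis was possible because each cluster came from 1 plate and the cell numbers only name cells.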

Other observations

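Genes of energy metabolism, chosen after their values were seen, mostly had ratios below 0, and all but 1 stayed under the 4-fold limit, against 4.48% of all 7003 genes called lower and 45.8% below 0. All 30 tested genes of the mitochondrial genome had a log2 ratio below 0 (median -1.14), with 1 of them, mt-Tm, past the rule, and their sum was 12142 CPM in cluster 6 and 24143 CPM in cluster 7. Per cell the sum ran from 7681 to 23311 CPM (median 12891) and from 10963 to 102857 CPM (median 25479), so the clusters overlapped. Mitochondrial counts per ERCC count had medians of 0.928 (0.384 to 2.34) in cluster 6 and 1.18 (0.347 to 1.95) in cluster 7, closer together than the CPM values.

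Nuclear genes of the respiratory chain also had ratios mostly below 0, and none passed the rule. Of 37 genes of the Ndufa, Ndufb, Ndufc, Ndufs and Ndufv families, subunits of complex I, 36 were below 0 (median -0.67), and the sums were 4519 and 7623 CPM. All 10 tested Cox genes of complex IV (median -0.89, sums 1939 and 3553 CPM) and all 16 Atp5 genes of ATP synthase (median -0.87, sums 3938 and 8169 CPM) were below 0. ERCC scaling moves log2 ratios upwards by a median of 0.73, a shift larger than the median of the complex I genes and smaller than those of the other groups. In Acta2GFP the log2 ratios of the 4 sums, from the mitochondrial genome to ATP synthase, were -0.80, -0.54, -0.50 and -0.98.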
